A study of Mus musculus with 8 samples.

Results

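Differentiating osteoblasts (dOBs) are osteoblasts (OBs) in which *Col1a1*, the gene of the pro-α1 chain of type I procollagen, has reached an intermediate level. They were taken here from droplet-based single-cell RNA sequencing of mouse parietal bone, a flat bone of the skull vault. A cell was kept when it had at least 500 detected genes and less than 10% mitochondrial reads, counted as unique molecular identifiers (UMIs). OBs were selected on 4 measured genes: 10 or more UMIs of *Col1a1*, and 2 or more UMIs in each of any 2 of *Runx2*, *Sp7* and *Ibsp*. The stage was then chosen by *Col1a1* alone. OBs with *Col1a1* from 0.75% to 3.5% of their UMIs were dOBs, those under 0.75% early OBs (eOBs), and those over 3.5% mature OBs (mOBs). There were 1217 dOBs, which made up 45.6% of the 2671 OBs and 2.62% of the 46420 cells kept out of 68625 barcodes. The neighbouring stages held 379 eOBs and 1075 mOBs.

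All 8 libraries came from the parietal bones of pups of 4 to 5 days of age, all of the strain B6.129(FVB)-Col1a2tm1Mcbr/J, digested briefly with collagenase. The 4 wild type (WT) libraries were S1, S2, S5 and S6, and the 4 heterozygous (Het G610C) libraries were S3, S4, S7 and S8. Het pups carried 1 copy of *Col1a2* with the G610C substitution, which replaces a glycine of the collagen triple helix, in the germline, a model of osteogenesis imperfecta. Each library pooled cells of up to 5 animals of 1 genotype, so the library is the replicate and the spread between single animals was not measured. S1 to S4 were made with kit version 3 and S5 to S8 with kit version 3.1, with a later software release for the second set, so the kit and the software cannot be told apart.

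On the way from a mesenchymal progenitor to a matrix-forming cell, an OB first switches on the transcription factors *Runx2* and *Sp7*, then fills its endoplasmic reticulum (ER) with procollagen, and finally deposits and mineralizes the matrix. Procollagen chains are hydroxylated, folded with the help of collagen chaperones, carried from the ER to the Golgi in large carriers, and trimmed and crosslinked outside the cell. Cells in the middle of this course are still able to divide, while their secretory machinery is being built.

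The number of dOBs per library ran from 33 in S2 to 427 in S5. WT libraries held 89 (S1), 33 (S2), 427 (S5) and 251 (S6) dOBs, and Het libraries 67 (S3), 102 (S4), 158 (S7) and 90 (S8). The UMIs summed over the dOBs of a library ran from 467750 (S2) to 6304261 (S5), and the median depth of a dOB from 8487 UMIs (S4) to 19160 UMIs (S6). Total depth per library lay between 30480239 and 85162035 UMIs. S2 therefore carried the least precise dOB values of all libraries, and S5 and S6 the most precise.

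That the cells are OBs was checked on genes that the selection had not used. These values do not check the stage. Levels are given in CPM. This is the count of a gene relative to all UMIs summed over the cells of a stage in a library, scaled to 1000000. Haematopoietic-like cells, which have at least 4 detected haematopoietic markers and are not OBs, serve as the background. Their values hold free RNA and any RNA that they make themselves. *Alpl*, the tissue-nonspecific alkaline phosphatase of OBs, had a median over the 8 libraries of 549 CPM in dOBs and 9.15 CPM in haematopoietic-like cells. The homeobox factor *Dlx5* stood at 114 against 4.38 CPM and *Pth1r*, the receptor of parathyroid hormone, at 397 against 10.1 CPM. *Col1a2*, the partner chain of *Col1a1*, had a median of 14280 CPM in dOBs and 574 CPM in haematopoietic-like cells. *Spp1* (osteopontin) stood at 6147 against 151 CPM, but the share of cells with a UMI was less apart. At 3000 UMIs per cell the median over libraries was 45.0% of dOBs and 29.4% of haematopoietic-like cells (39.7% and 35.1% in S5), and without thinning 78.8% and 53.5%.

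The genes that selected the cells are given as a description without a test. *Col1a1* lay between 15030 and 21070 CPM in dOBs, between 3114 and 5298 CPM in eOBs and between 58000 and 122500 CPM in mOBs. *Sp7* was at 171 to 211 CPM in dOBs. *Ibsp*, which codes for bone sialoprotein, ran from 396 CPM (S5) to 4701 CPM (S2) with a median of 1181 CPM, and had a median of 6267 CPM in mOBs. *Runx2* split by kit: it was at 406, 329, 226 and 331 CPM in S1 to S4 and at 2002, 2073, 2167 and 2470 CPM in S5 to S8. The same gene was at 25.4 to 78.8 CPM and at 599 to 698 CPM in the remaining cells of the respective libraries. The combination of genes that admitted a cell differed accordingly. Of all dOBs, 710 passed on *Runx2* and *Sp7* alone, 260 on *Runx2* and *Ibsp*, 18 on *Sp7* and *Ibsp* and 229 on all 3 genes, and the share passing on *Runx2* and *Sp7* alone was 15.7% to 44.8% in the libraries of kit version 3 and 64.4% to 74.9% in those of kit version 3.1.

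The cells nearest to the limits of *Col1a1* are given without a test. The 54 cells at 0.65% to 0.75% *Col1a1* had 123 CPM of *Cxcl12* and 124 CPM of *Sfrp2*, and the 50 cells at 0.75% to 0.85% had 329 and 193 CPM. The 101 cells at 3.2% to 3.5% had 1498 CPM of *Ibsp* and 118 CPM of *Sfrp2*, and the 86 cells at 3.5% to 3.8% had 5645 and 382 CPM.

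RNA of other cells was present in the dOB sums at unequal levels. The summed CPM of 12 chondrocyte markers ran from 165 to 7619, with *Col2a1*, the main cartilage collagen, itself at 10.7 to 3468 CPM. *Col2a1* was above 1% of UMIs in 92 dOBs, of which 70 were in S5. Summed endothelial markers lay at 10.7 to 113 CPM, haematopoietic markers at 10.9 to 560, smooth muscle and pericyte markers at 549 to 1060, fibroblast markers at 8.55 to 210, osteoclast markers at 231 to 577 and erythroid markers at 28.0 to 7719 CPM. Of the dOBs, 1118 had at least 3 detected markers of some other class, 479 had 3 such markers at 3 or more UMIs each, and 169 were among the cells nearest to simulated doublets, from 0% of the dOBs of S2 to 25.8% of those of S5. Of 46176 distinct barcodes, 244 occurred in more than 1 library, 10 of them as a dOB in 1 library, and 0 barcodes were shared between dOBs.

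Which genes are highest in dOBs, before the cells reach full *Col1a1* expression, was asked by testing dOBs against eOBs and against mOBs within libraries. Ranked by the smaller of the 2 log2 differences, *Sfrp2* led the genes that were higher in dOBs than in both other stages. Of 9987 genes tested (edgeR quasi-likelihood test, Benjamini-Hochberg adjusted p under 0.05), 681 (6.82%) were called higher and 716 (7.17%) lower in dOBs than in eOBs, and 1450 (14.5%) higher and 1378 (13.8%) lower in dOBs than in mOBs. Both calls were in favour of dOBs for 83 genes (0.831%), among them 2 of 24 tested genes of the ER unfolded protein response, 1 of 12 of the mitochondrial one, 2 of 33 of BMP, FGF, IGF and parathyroid hormone signals, 1 of 26 of the Wnt pathway, 1 of 29 of matrix and mineralization and 1 of 29 of procollagen modification, and 75 of these had their highest CPM in dOBs in at least 6 of 8 libraries. Without S6 the genes called between dOBs and eOBs fell from 1397 to 880.

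*Sfrp2*, which codes for a secreted frizzled-related protein that binds Wnt ligands, had the highest rank. *Ostn*, *Grm7*, *Kcnb2*, *Mgat4c* and *Rasgrf1* exceeded it in the difference over eOBs, and *Gfra2* over mOBs. Its lowest, median and highest CPM over the 8 libraries were 6.23, 77.4 and 250 in eOBs, 25.6, 356 and 697 in dOBs, and 0, 19.8 and 160 in mOBs. The dOBs had the highest value in 8 of 8 libraries, although the ranges overlapped: the dOBs of S1, S2 and S7, at 124, 25.6 and 116 CPM, lay inside the ranges of both eOBs and mOBs. The fitted difference was 1.98 on the log2 scale (SE 0.36, 3.95-fold, edgeR adjusted p = 0.000781) over eOBs and 2.61 (SE 0.35, 6.11-fold, adjusted p = 1.22e-05) over mOBs. With each cell thinned to 3000 UMIs, which kept 1118 of 1217 dOBs and 4838 of 6672 haematopoietic-like cells, a median of 19.0% of dOBs (6.45% to 35.9% over libraries) and of 5.02% of haematopoietic-like cells had an *Sfrp2* UMI. Without thinning the medians were 32.0% and 8.31%, at median depths of 8487 to 19160 UMIs in dOBs and 3569 to 18210 UMIs in haematopoietic-like cells. *Sfrp2* was not particular to OBs. All cells outside the OBs, summed, had 132, 35.8, 1092 and 735 CPM in S1 to S4, above the dOBs of the same library in each, and 259, 232, 53.8 and 79.3 CPM in S5 to S8, below the dOBs in each. The part of RNA from such cells in the dOB values was not tested.

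*Sfrp2* lies at chr3:83766321-83774316 on the plus strand of GRCm38. Its promoter is shown because this gene ranked first, with those of *Ifitm5*, which had the largest rise within the dOBs among the genes taken by the naming rule, and *Klhl33*, the gene called between genotypes. The sequences are those of RefSeq for GRCm38.p6, 5′ to 3′ on the strand of the gene, and end at the base before the gene's start in GENCODE M21. Capitals mark matches to 3 short motifs that were searched on both strands: the RUNX core ACCACA, the DLX and MSX core TAATTA and the SP and KLF GC box GGGCGG. The *Sfrp2* stretch (chr3:83766071-83766320, plus strand) held none of them. The *Ifitm5* stretch (chr7:140950292-140950493, minus strand) held 2 GC boxes, and the *Klhl33* stretch (chr14:50897508-50897733, minus strand, upstream of the outer of 2 annotated starts) held 1 TAATTA. No base lay in 2 matches.
Sfrp2: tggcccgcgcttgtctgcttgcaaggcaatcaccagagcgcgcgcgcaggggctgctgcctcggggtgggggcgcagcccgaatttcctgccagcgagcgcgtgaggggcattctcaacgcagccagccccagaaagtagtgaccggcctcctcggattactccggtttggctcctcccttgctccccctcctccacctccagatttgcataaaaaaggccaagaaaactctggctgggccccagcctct
Ifitm5: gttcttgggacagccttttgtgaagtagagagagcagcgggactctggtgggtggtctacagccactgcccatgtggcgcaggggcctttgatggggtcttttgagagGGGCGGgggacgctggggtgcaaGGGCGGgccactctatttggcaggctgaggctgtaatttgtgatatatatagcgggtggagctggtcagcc
Klhl33: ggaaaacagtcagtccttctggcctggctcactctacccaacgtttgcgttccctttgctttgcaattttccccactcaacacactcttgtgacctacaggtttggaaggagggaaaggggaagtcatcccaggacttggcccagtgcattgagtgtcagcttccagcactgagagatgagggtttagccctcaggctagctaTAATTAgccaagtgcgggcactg

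The motif letters were also counted in all promoters. Of 32851 RefSeq promoter windows of 250 bases, 14.0% held the RUNX core, 4.84% the DLX and MSX core and 32.7% the GC box. Of the 83 genes, 64 had a promoter in the table, and their 85 windows held the RUNX core in 8.24%, the DLX and MSX core in 4.71% and the GC box in 60.0%. These shares are descriptions of letters and were not tested.

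*Mfap4*, a microfibril-associated glycoprotein, had lowest, median and highest values of 9.34, 44.3 and 108 CPM in eOBs, 34.2, 110 and 220 CPM in dOBs and 3.0, 37.5 and 73.8 CPM in mOBs, and was highest in dOBs in 8 of 8 libraries. Its log2 difference was 1.61 (SE 0.25, edgeR adjusted p = 0.00017) over eOBs and 1.53 (SE 0.22, adjusted p = 2.42e-05) over mOBs. *Col8a2*, a short-chain network collagen, had a median of 114 CPM in dOBs against 49.0 in eOBs and 21.7 in mOBs, and was also highest in 8 of 8 libraries. The fibril-associated collagen *Col14a1* had medians of 11.6, 35.1 and 7.07 CPM in eOBs, dOBs and mOBs and was highest in dOBs in 7 of 8 libraries. As with *Sfrp2*, the cells outside the OBs were not low in these genes, with medians of 107 CPM for *Mfap4*, 97.3 CPM for *Col8a2* and 66.8 CPM for *Col14a1*. *Adamtsl1*, a secreted ADAMTS-like glycoprotein, and *Megf6*, a protein of many EGF-like repeats, followed with medians in dOBs of 113 and 45.8 CPM. Other members, chosen after their values were seen, were *Eln* (elastin, log2 1.47 over eOBs and 0.95 over mOBs), *Npnt* (nephronectin, 1.37 and 0.98), *Tnmd* (tenomodulin, 0.93 and 1.42), *Gpc3* (a glypican, 0.93 and 0.50) and *P4ha3* (a collagen prolyl hydroxylase subunit, 1.18 and 0.69).

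*Ostn*, which codes for osteocrin, a secreted peptide of OBs, rose most of all tested genes named here from eOBs to dOBs. It had 0, 4.60 and 12.4 CPM (lowest, median, highest) in eOBs, 8.95, 61.8 and 131 CPM in dOBs and 0, 8.04 and 74.7 CPM in mOBs. The low dOB values were those of S1, S3 and S4, and the dOBs were highest in 7 of 8 libraries. The log2 difference was 4.10 (SE 0.64, edgeR adjusted p = 0.000192) over eOBs and 1.30 (SE 0.39, adjusted p = 0.0162) over mOBs. *Ostn* lies at chr16:27307489-27351212 of GRCm38.

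Members of other classes were also among the 83 genes. *Igf2*, an insulin-like growth factor, ran from 3.12 to 39.7 CPM in eOBs (median 27.2), from 29.3 to 70.8 CPM in dOBs (median 43.2) and from 5.06 to 33.3 CPM in mOBs (median 17.1). It was highest in dOBs in 7 of 8 libraries, with a log2 difference of 1.16 against either stage (SE 0.24 and 0.21, edgeR adjusted p = 0.00266 and 0.000282). In all cells outside the OBs its median was 61.8 CPM. *Bcl11b*, a zinc finger transcription factor, had medians of 27.6, 72.5 and 18.4 CPM in the 3 stages, and a difference of 1.72 over eOBs and 1.31 over mOBs. *Epha4*, a receptor of ephrins, exceeded eOBs by 1.43 and mOBs by 1.11. *Cpa6*, a carboxypeptidase, was highest in dOBs in 8 of 8 libraries at a median of 21.9 CPM, against 7.06 and 4.49 CPM. The actin-related *Actr3b* exceeded eOBs by 1.53 and mOBs by 1.16, with edgeR adjusted p = 0.0445 and 0.0270. It lost its call against eOBs without any of S2, S4, S5, S6, S7 or S8 (adjusted p 0.0676 to 0.179) and against mOBs without S2, S4, S6 or S8 (0.0505 to 0.0727).

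Other members had small folds. *Hsp90b1*, an ER chaperone, exceeded eOBs by 0.35 and mOBs by 0.32 on the log2 scale, *Canx* (calnexin) by 0.39 and 0.24, and the mitochondrial co-chaperonin *Hspe1* by 0.34 and 0.35. The nucleolar proteins *Npm1* (0.36 and 0.22) and *Ncl* (0.31 and 0.47) lay in the same range. These 5 genes were chosen after their values were seen.

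**Figure D1:**
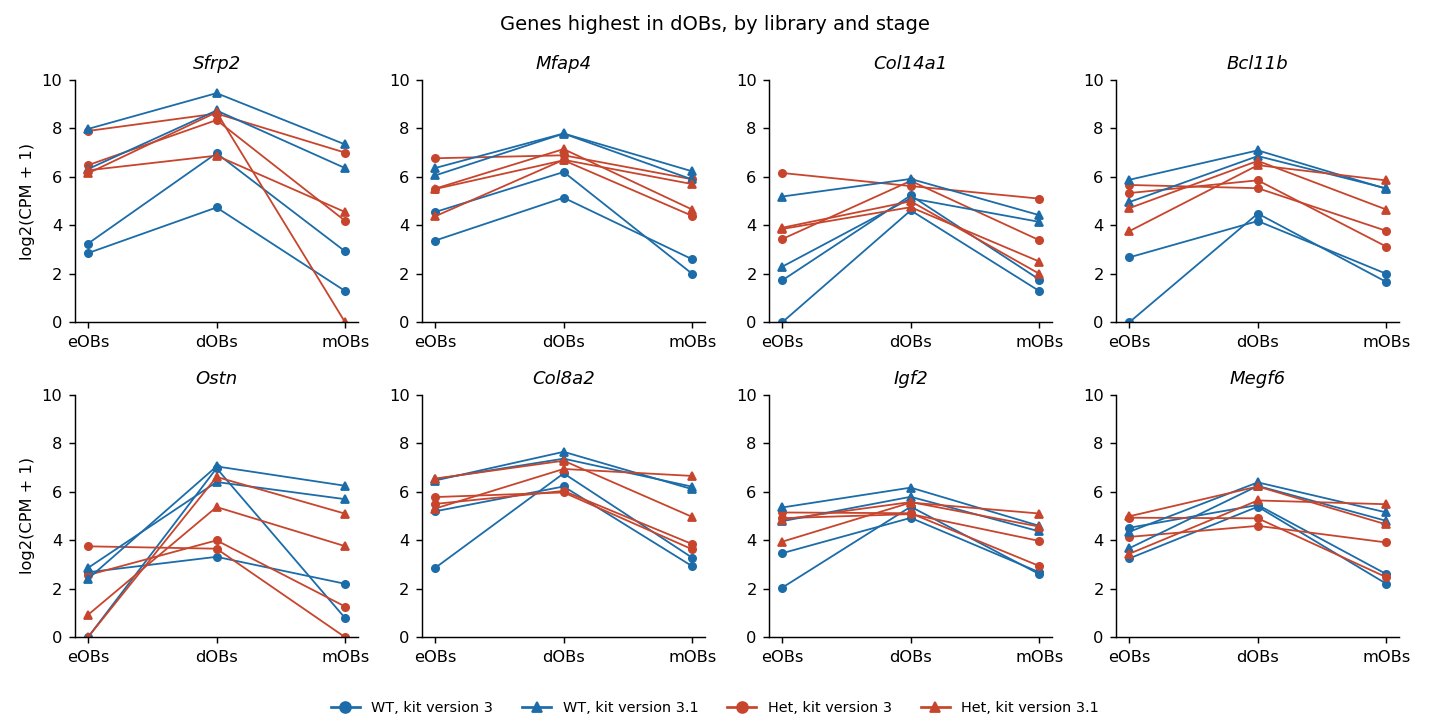
Levels of 8 of the genes highest in dOBs in eOBs, dOBs and mOBs, as log2(CPM + 1) on the vertical axis, with 1 line per library, colours for genotype and symbols for kit version. The lines peak in the middle in 8 of 8 libraries for Sfrp2, Mfap4 and Col8a2 and in 7 of 8 for the other 5 genes.

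The kits were read separately because the libraries differed by kit in selection and depth. In kit version 3.1 alone 67 genes were called highest in dOBs, 34 of them among the 83. Of the 67 genes, 41 (61.2%) also had their highest stage mean in dOBs in kit version 3, against 35.5% of all tested genes. In kit version 3 alone 9 genes were called (*Sfrp2*, *Postn*, *Col3a1*, *Col12a1*, *Dkk3*, *Gpc3*, *Lrig3*, *Sncaip* and *Thbs2*), and 5 (55.6%) had their highest mean in dOBs in kit version 3.1, against 35.1% of all tested genes. There were 3 genes called in both. The number of genes called highest fell from 83 to 35 without S6 (33 of them among the 83) and to 48 without S8 (45 of them). It was 43 without the cells that had 3 markers of another class at 3 or more UMIs each (479 dOBs). Only 24 of these 43 genes were among the 83. Leaving out those that had 3 such markers detected at all removed 1118 of 1217 dOBs and left sums of 10 or more eOBs in S4 only (14 cells), too few to read.

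Between eOBs and dOBs the calls were close to even in direction, and several genes rose severalfold. *Ifitm5*, which codes for the bone-restricted membrane protein BRIL, ran from 4.14 to 108 CPM in eOBs (median 11.6), from 24.5 to 638 CPM in dOBs (median 116) and from 264 to 1335 CPM in mOBs (median 608). It was higher in dOBs than in eOBs and lower than in mOBs in 8 of 8 libraries each, by 2.86 (SE 0.37, edgeR adjusted p = 3.14e-05) and −2.35 (SE 0.29, adjusted p = 6.15e-06) on the log2 scale. In dOBs the 4 libraries of kit version 3 had 119 to 638 CPM and the 4 of kit version 3.1 had 24.5 to 114 CPM, so the level went with the kit. *Smpd3*, a sphingomyelinase needed for mineralization, had medians of 15.7, 84.0 and 601 CPM in eOBs, dOBs and mOBs, a rise of 2.56 (SE 0.41) and a distance to mOBs of −2.79 (SE 0.34). *Slc13a5*, the citrate transporter, had medians of 1.17, 27.1 and 152 CPM and rose by 3.02 (SE 0.58, adjusted p = 0.0013).

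*Tnn*, a tenascin of bone surfaces, was already high in dOBs. It had lowest, median and highest values of 11.6, 125 and 451 CPM in eOBs, 236, 853 and 1449 CPM in dOBs and 67.8, 725 and 1836 CPM in mOBs. It rose by 2.74 (SE 0.46, edgeR adjusted p = 0.000357) from eOBs to dOBs in 8 of 8 libraries, and its difference from mOBs was 0.12 (adjusted p = 0.882). The sulfotransferase gene *Chst8* rose by 2.72. *Postn*, which codes for periostin, rose by 1.85 (SE 0.38, adjusted p = 0.0021), from a median of 517 CPM to 2197 CPM. Its dOB level was 714 to 1052 CPM in kit version 3 and 3343 to 4637 CPM in kit version 3.1, and its difference from mOBs was −0.26 (adjusted p = 0.642) over all libraries but 0.67 in kit version 3 and −0.83 in kit version 3.1.

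Genes that fell from eOBs to dOBs were *Rapgef5*, *Plac8*, *Cd93*, *Kitl*, *Steap4* and *Olfml2a*, with log2 differences of −3.47, −3.39, −3.25, −3.18, −3.02 and −2.97. *Kitl*, the ligand of the Kit receptor, went from 0, 50.7 and 151 CPM (lowest, median, highest) in eOBs to 0, 6.0 and 17.9 CPM in dOBs. *Olfml2a*, an olfactomedin-like secreted protein, went from 29.4, 92.7 and 294 CPM to 4.44, 15.9 and 29.9 CPM, and was lower in dOBs in 8 of 8 libraries. Markers of other cells moved with this step. All 4 endothelial markers tested fell (*Pecam1* −3.94, *Cdh5* −5.19, *Flt1* −4.45 and *Egfl7* −2.76), their sum over 8 markers being 19.5 to 1779 CPM in eOBs and 10.7 to 113 CPM in dOBs. Of 11 chondrocyte markers tested 9 fell, with sums of 34.3 to 33560 CPM in eOBs and 165 to 7619 CPM in dOBs. Of 6 smooth muscle and pericyte markers tested 3 fell (*Rgs5* −2.74, *Kcnj8* −2.29 and *Notch3* −1.87), and of 6 haematopoietic markers 5 had negative differences, of which 3 had an unadjusted p under 0.05 and 0 were called (median −1.38). The part of such cells in the genes that fell was not tested.

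More genes were called between dOBs and mOBs than between dOBs and eOBs over all libraries (2828 against 1397) and in kit version 3 (2093 against 225), but not in kit version 3.1 (1661 against 1710). The sums rest on unequal numbers of cells. S1 to S4 held 81, 23, 22 and 23 eOBs and 73, 77, 79 and 192 mOBs. S5 to S8 held 95, 50, 58 and 27 eOBs and 299, 208, 105 and 42 mOBs. The part of these numbers in the counts of calls was not tested. Genes higher in dOBs included *Pi15*, a peptidase inhibitor, with 6.73, 20.5 and 68.4 CPM (lowest, median, highest) in dOBs and 0, 0.983 and 2.91 CPM in mOBs, a log2 difference of 3.51 (SE 0.40). *Thy1*, a surface glycoprotein of mesenchymal progenitors, had 24.6, 36.0 and 55.6 CPM in dOBs and 1.20, 4.15 and 7.99 CPM in mOBs, a difference of 2.60 (SE 0.33, edgeR adjusted p = 6.35e-06). The ranges of dOBs and mOBs did not overlap for either gene. The pericyte gene *Rgs5* (3.19), the network collagen *Col8a1* (2.54) and the chemokine *Cxcl14* (2.42) were also higher in dOBs. The summed smooth muscle and pericyte markers, *Rgs5* among them, were 549 to 1060 CPM in dOBs and 73.2 to 730 CPM in mOBs, and 4 of 6 tested were called higher in dOBs.

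Genes lower in dOBs than in mOBs included *Col22a1* and *Phex*. *Col22a1*, a collagen of tissue junctions, had 14.4, 22.3 and 40.6 CPM in dOBs and 153, 342 and 484 CPM in mOBs, a difference of −4.23 (SE 0.18). *Phex*, a membrane peptidase of phosphate control, had 6.52, 21.2 and 39.9 CPM in dOBs and 190, 231 and 528 CPM in mOBs, a difference of −4.02 (SE 0.31). In both genes the highest dOB library lay well below the lowest mOB library. *Bglap*, which codes for osteocalcin, had a median of 161 CPM in dOBs and 4016 CPM in mOBs, a difference of −4.99. *Bglap2* and *Bglap3* (−4.23 and −4.76) are near-identical copies of it, so the division of reads among the 3 genes is uncertain. The long noncoding transcript *C430049E01Rik* had a difference of −5.58.

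Known OB genes took different courses through the dOB stage. *Col1a2*, which was not used to select the cells, ran from 2464 to 4644 CPM in eOBs, from 10860 to 17470 CPM in dOBs and from 34370 to 81490 CPM in mOBs, with no overlap of the stages. *Sparc* (osteonectin) was at 1.02 against eOBs and −1.81 against mOBs. *Alpl* had medians of 418, 549 and 502 CPM in eOBs, dOBs and mOBs and differences of 0.45 (edgeR adjusted p = 0.134) and −0.06 (adjusted p = 0.873). *Pth1r* rose by 0.80 (SE 0.12) from eOBs and was at −0.59 against mOBs. *Dlx5* was called against neither stage (0.44, adjusted p = 0.119, and 0.33, adjusted p = 0.146). *Dmp1*, a phosphoprotein of osteocytes, was at −2.07 against mOBs (adjusted p = 0.000886) and 0.54 against eOBs (adjusted p = 0.517), and *Cxcl12*, a chemokine of stromal progenitors, was at −1.54 against eOBs and 1.77 against mOBs, both called. *Spp1* was at −0.34 (adjusted p = 0.262) and −0.90 against eOBs and mOBs, *Sox9*, the factor of cartilage fate, at −1.56 and 0.51 (adjusted p = 0.0933), *Mgp*, an inhibitor of calcification, at −1.45 and 0.81 (adjusted p = 0.111), and *Twist1*, a repressor of OB differentiation, at 0.53 and −0.52, neither of which was called. *Mepe* and *Phospho1* were too low to be tested.

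Gene lists were then counted against the background of all genes, for which the median log2 difference was 0.016 (dOBs over eOBs) and 0.025 (dOBs over mOBs), and of which 6.82% and 7.17% were called higher and lower than in eOBs, and 14.5% and 13.8% higher and lower than in mOBs. The machinery that makes procollagen stood between the other stages. Of 29 genes of procollagen modification and processing, 18 were called higher and 2 lower in dOBs than in eOBs (median 0.49), and 2 higher and 19 lower than in mOBs (median −0.61). The crosslinking enzyme *Lox* rose by 2.09 from eOBs and was at −1.10 against mOBs. The prolyl hydroxylase subunit *P4ha2* was at 1.30 and −1.31, and the collagen chaperone *Serpinh1* (HSP47) at 0.64 and −0.91. The exceptions against mOBs were *Loxl1* (1.06), which also crosslinks elastin, and *P4ha3*. Of 32 genes of ER to Golgi transport, 18 were called higher and 0 lower than in eOBs (median 0.41; at unadjusted p under 0.05 23 and 2), and 0 higher and 26 lower than in mOBs (median −0.58). *Creb3l1*, the membrane-bound factor that drives secretory genes in OBs, was at 38.5 to 78.0 CPM in eOBs, 124 to 329 CPM in dOBs and 268 to 691 CPM in mOBs. It rose by 1.79 (SE 0.15) from eOBs and was at −1.41 (SE 0.13) against mOBs, in 8 of 8 libraries each.

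Matrix and mineralization genes had 12 of 29 higher and 4 lower than in eOBs (median 0.45), and 4 higher and 17 lower than in mOBs (median −0.90). *Col5a1*, which nucleates collagen fibrils, rose by 1.69 from eOBs and was at −1.05 against mOBs, whereas the phosphate transporter *Slc20a2* was at −1.08 and 1.69. Of 17 late OB and osteocyte genes, 6 were higher and 2 lower than in eOBs (median 0.45), and 0 were higher and 15 lower than in mOBs (median −1.94). Of 20 early and stromal genes, 5 were higher and 5 lower than in eOBs, and 7 higher and 2 lower than in mOBs (medians 0.11 and 0.66). Of 18 transcription factors of OB fate, 2 were higher and 1 lower than in eOBs, near the background, and 6 higher and 6 lower than in mOBs (medians 0.07 and 0.26).

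Genes of the cell cycle were higher in dOBs than in mOBs as a list. All 35 tested were called higher in dOBs than in mOBs, with a median of 1.34, and 0 of 35 were called in either direction against eOBs (median 0.28; at unadjusted p under 0.05 2 higher and 0 lower). *Mki67*, the proliferation antigen, lay 1.46 above mOBs and 0.47 above eOBs (edgeR adjusted p = 0.322), and the DNA topoisomerase *Top2a* 1.61 and 0.57 (adjusted p = 0.204). The mitotic kinase *Aurkb* (2.01) and the factor of DNA methylation upkeep *Uhrf1* (1.82) had larger differences from mOBs than these. The 36 listed genes together took 0.205% ± 0.048 of UMIs (SD, n = 8 libraries) in dOBs, 0.0574% ± 0.024 in mOBs and 0.186% ± 0.082 in eOBs. The mean log2 ratio of dOBs to mOBs was 1.93 ± 0.94 and was positive in 8 of 8 libraries (two-sided exact sign-flip permutation test, p = 0.0078125, the smallest that 8 libraries allow). The ratio of dOBs to eOBs was 0.23 ± 0.52, positive in 5 of 8 libraries (exact permutation p = 0.21875). The median cell differed less than the sums: the median over cells was higher in dOBs than in mOBs by 0.0252 percentage points (exact permutation p = 0.0078125) and than in eOBs by 0.0039 points (p = 0.3125).

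**Figure D2:**
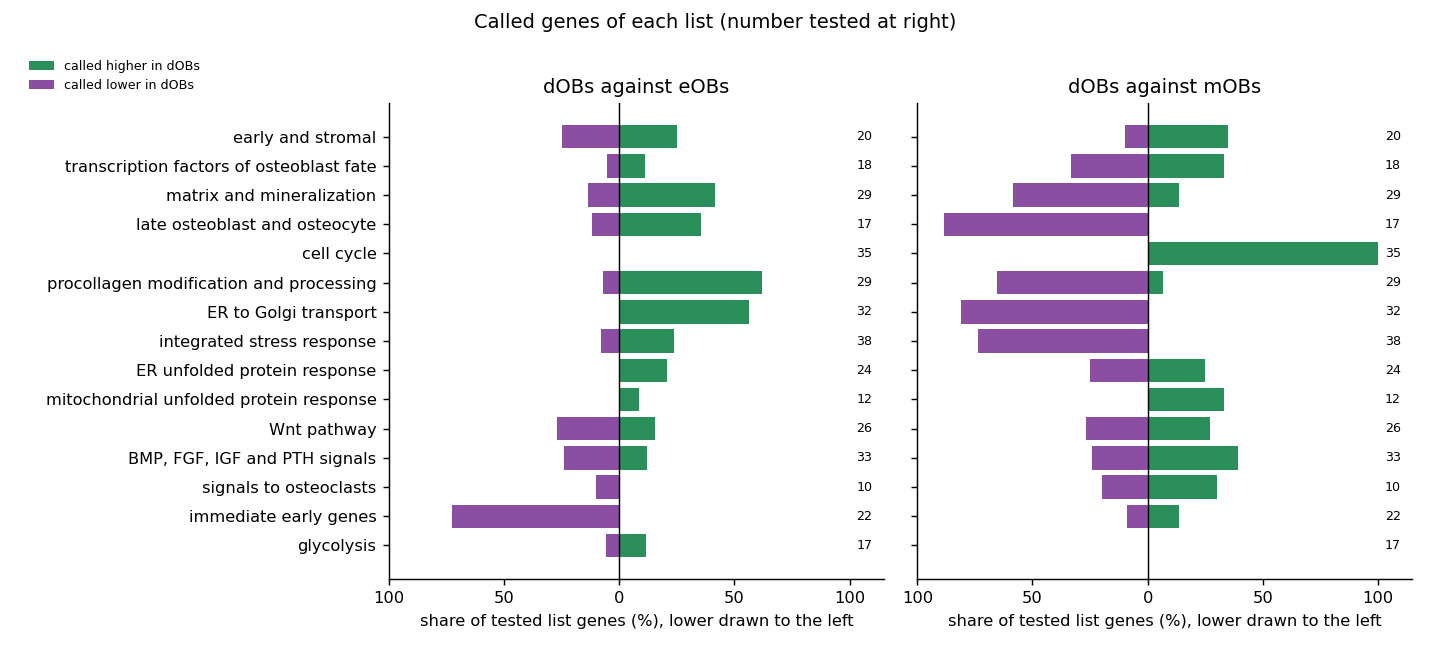
Share of the tested genes of each list that were called higher (to the right) or lower (to the left) in dOBs than in eOBs (left panel) and in mOBs (right panel), in percent, with the number tested at the right edge. Cell cycle genes are called higher than in mOBs in 35 of 35 cases, and genes of ER to Golgi transport are called lower than in mOBs in 26 of 32.

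Stress-related lists did not move as one. Of 38 genes of the integrated stress response (ISR), the program that restrains translation and induces amino acid supply genes, 9 were higher and 3 lower than in eOBs, and 0 were higher and 28 lower than in mOBs (medians 0.27 and −0.61). *Nupr1*, a stress-induced chromatin protein, was at 0.75 against eOBs and −2.30 against mOBs. The transcription factors *Atf4* and *Atf5* were at −0.81 and −1.25 against mOBs, and at −0.23 and 0.02 against eOBs, neither of which was called. Of 24 genes of the unfolded protein response of the ER, 5 were higher and 0 lower than in eOBs (median 0.27), and 6 were higher and 6 lower than in mOBs (median 0.07). The 6 higher ones were folding helpers of the ER lumen (*Hspa5* at 0.46, with an edgeR adjusted p of 0.0162 that became 0.0510 without S2, *Hsp90b1*, *Pdia6*, *Calr*, *Canx* and *Sdf2l1* at 0.87), and the 6 lower ones were the sensors *Ern1* and *Eif2ak3*, the factor *Xbp1* (−0.61) and the degradation genes *Edem1* (−0.79), *Herpud1* and *Derl1*. Of 12 genes of the mitochondrial unfolded protein response, 1 was higher than in eOBs and 4 (*Hspd1*, *Hspe1*, *Clpp* and *Trap1*) were higher than in mOBs, with 0 lower in either. Of 17 glycolysis genes, 2 were higher and 1 lower than in eOBs, and 0 were called against mOBs (at unadjusted p under 0.05 2 higher and 1 lower).

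Immediate early genes, which respond within minutes to stimuli and also to tissue digestion, fell from eOBs to dOBs in 16 of 22 cases with 0 higher (median −1.59). Their summed level was 1581 to 8333 CPM in eOBs, 1352 to 2365 CPM in dOBs and 884 to 1815 CPM in mOBs. *Fos* was at −1.63 and the phosphatase gene *Dusp1* at −1.92. Against mOBs 3 were higher and 2 lower.

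Of the 26 Wnt pathway genes tested, 4 were higher and 7 lower than in eOBs, and 7 higher and 7 lower than in mOBs (medians −0.06 and 0.08). *Wnt10b*, a ligand that favours bone formation, rose by 2.91 from eOBs to a mean of 16.6 CPM, and the nuclear effector *Tcf7* by 1.48, while its relative *Lef1* was at −1.15. Among the secreted antagonists, *Sfrp2* and *Dkk3* (1.44) rose, *Dkk2* fell by 1.63, and *Dkk1* was at −3.41 against mOBs. The enhancer of Wnt signals *Rspo3* fell by 0.73 from eOBs and was at 2.18 against mOBs. Of 33 genes of BMP, FGF, IGF and parathyroid hormone signalling, 4 were higher (*Igf2*, *Id2*, *Pth1r* and *Tgfb1*) and 8 lower than in eOBs, and 13 higher and 8 lower than in mOBs (medians −0.12 and 0.31). *Nog*, the BMP antagonist noggin, lay 1.97 above mOBs, and the growth factor *Igf1* fell by 1.60 from eOBs and was at 1.86 against mOBs. Of 10 genes of signals to osteoclasts, 0 were higher and 1 lower than in eOBs, and 3 higher and 2 lower than in mOBs.

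The dOBs were not uniform, so those with *Col1a1* under 1.5% of UMIs (lower dOBs, 372 cells) were compared with the rest (upper dOBs, 845 cells). Of 8164 genes tested, 210 (2.57%) were called higher and 116 (1.42%) lower in upper dOBs. *Ifitm5* had the largest rise among the genes taken by the naming rule, which leaves out haemoglobin genes, from 12.6, 66.2 and 264 CPM (lowest, median, highest) in lower dOBs to 28.8, 163 and 935 CPM in upper dOBs, a log2 difference of 1.72 (SE 0.16, edgeR adjusted p = 6.32e-06) and a rise in 8 of 8 libraries. *Prss35*, a secreted serine protease homologue, went from 3.11, 22.5 and 59.5 CPM to 21.2, 59.9 and 112.5 CPM (1.43), and the mitochondrial protein gene *Ndufa4l2* from 11.9, 23.4 and 78.2 CPM to 21.2, 72.9 and 143 CPM (1.40). Both rose in 8 of 8 libraries while their ranges overlapped. *Smpd3* (1.42), the mitochondrial folate enzyme *Aldh1l2* (1.38), *Postn* (1.29, SE 0.13), *Ostn* (1.28, adjusted p = 0.00275), *Tnn* (1.09), *Lox* (1.02) and *Creb3l1* (0.77, SE 0.09) were called higher as well. *Col1a2* ran from 7534 to 10410 CPM in lower and from 15430 to 20040 CPM in upper dOBs.

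The naming rule took called genes of at least 20 CPM with the same direction in at least 7 libraries. Among these the largest falls within the dOBs were those of *Wisp2*, *Sned1*, *Sfrp4*, *Itga1* and *Prss23*. *Olfml2a* was called at −1.715 but was higher in upper dOBs in 2 of 8 libraries. *Wisp2*, a CCN family matricellular protein, went from 31.2, 55.4 and 268 CPM in lower dOBs to 5.09, 15.8 and 134 CPM in upper dOBs (−1.58). *Sned1*, a matrix glycoprotein, went from 19.0, 71.3 and 102 CPM to 0, 20 and 65.8 CPM (−1.58), and *Sfrp4*, another secreted frizzled-related protein, from 18.7, 53.6 and 373 CPM to 4.85, 18.0 and 95.5 CPM (−1.57). These and *Itga1*, the α1 integrin (−1.52), and the serine protease gene *Prss23* (−1.41) were lower in upper dOBs in 8 of 8 libraries, although the ranges overlapped. *Cxcl12* fell by 1.09 (SE 0.14, edgeR adjusted p = 0.000179). In contrast, several genes that peak in dOBs were not called between upper and lower dOBs: *Sfrp2* differed by 0.64 (adjusted p = 0.292), *Igf2* by −0.05 and *Col8a2* by −0.01. Of the lists, procollagen modification had 13 of 26 higher and 0 lower in upper dOBs (median 0.35, all genes −0.0047), ER to Golgi transport 9 of 31 higher and 0 lower, the ISR 5 of 31 higher and 1 lower, immediate early genes 0 of 20 higher and 6 lower (median −0.77), and the cell cycle 0 called of 35 (median −0.27, at unadjusted p under 0.05 0 higher and 9 lower). Markers of other cells moved with this division. All 4 erythroid markers tested were higher in upper dOBs (median 2.17), with *Hba-a1* and *Hba-a2* (2.33) called, both fibroblast markers tested were called higher (*Dpt* 0.92 and *Cd34* 0.86), the pericyte marker *Notch3* was called lower (−1.06), and 0 of 10 chondrocyte markers were called (median −0.56, at unadjusted p under 0.05 0 higher and 4 lower). Their part in the differences was not tested. The counts of upper against lower dOBs fell from 326 genes to 155 without S5 and to 185 without S6.

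**Figure D3:**
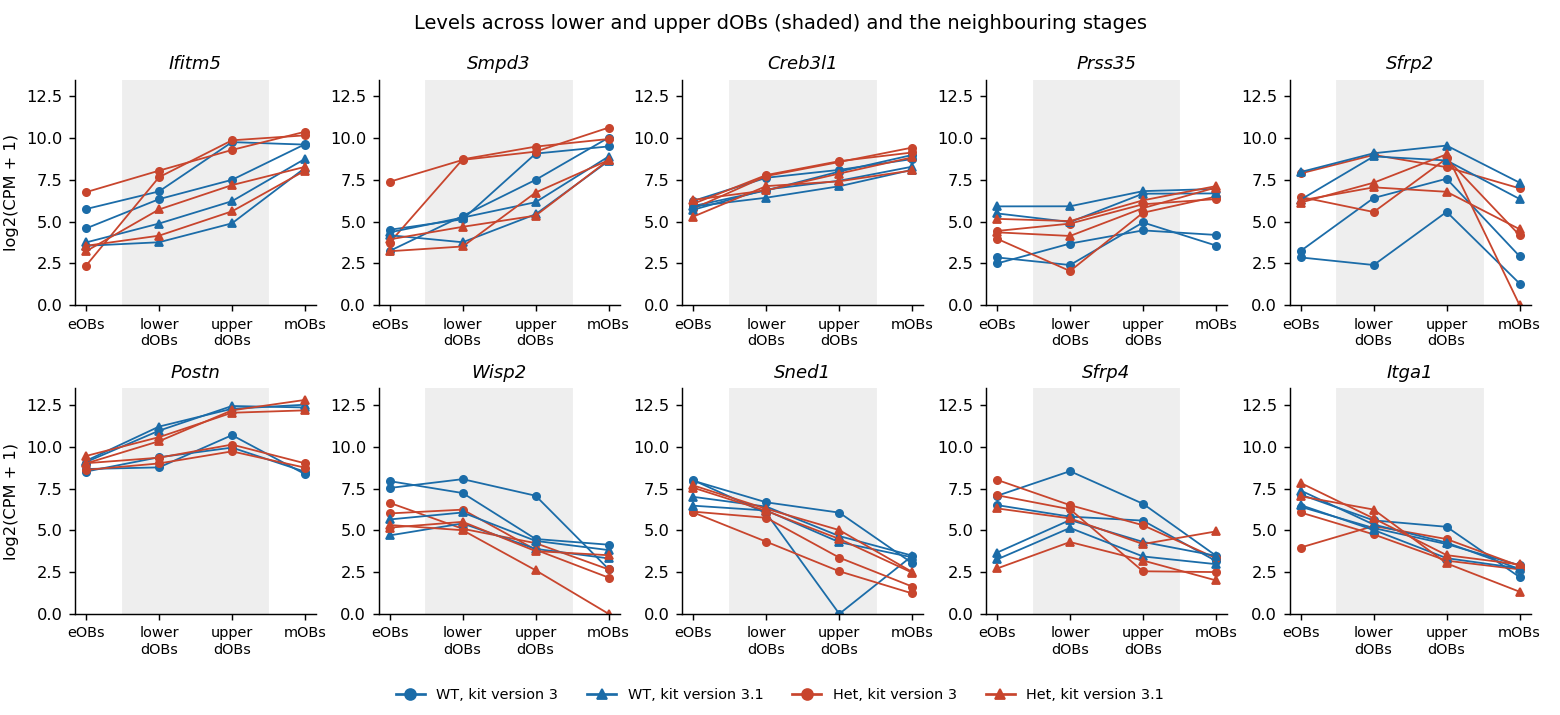
Levels of 10 genes across eOBs, lower and upper dOBs (shaded) and mOBs, as log2(CPM + 1) on the vertical axis, with 1 line per library, colours for genotype and symbols for kit version. Ifitm5, Smpd3, Creb3l1, Prss35 and Postn are higher in upper than in lower dOBs in 8 of 8 libraries, and Wisp2, Sned1, Sfrp4 and Itga1 are lower in 8 of 8.

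Whether the mutation changed the number of dOBs was asked of their share of OBs. It was 36.6% (S1), 24.8% (S2), 52.0% (S5) and 49.3% (S6) in WT and 39.9% (S3), 32.2% (S4), 49.2% (S7) and 56.6% (S8) in Het libraries. The libraries of kit version 3 all lay below those of kit version 3.1 in either genotype, and WT and Het overlapped. The exact binomial 95% interval (Clopper-Pearson, counting error only) was 17.7% to 33.0% for S2 and 48.5% to 64.4% for S8. The mean was 40.7% ± 12.5 (SD, n = 4) in WT and 44.5% ± 10.7 (n = 4) in Het, a difference of 3.78 percentage points (two-sided exact permutation test, p = 0.629, smallest possible 0.0286). The difference was 5.31 points within the older kit version and 2.25 points within the newer. Without S2 it was −1.51 points and without S8 −0.264 points. Upper dOBs made up 57.3% ± 22.6 of WT and 64.2% ± 6.24 of Het dOBs (n = 4 each, p = 0.543 by the exact permutation test). Het exceeded WT by 21.9 points in kit version 3, and the difference was −8.13 points in kit version 3.1.

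The cell cycle genes took 0.179%, 0.196%, 0.153% and 0.216% of dOB UMIs in S1, S2, S5 and S6 (WT) and 0.286%, 0.242%, 0.141% and 0.230% in S3, S4, S7 and S8 (Het). The Het value was above the WT values in 3 of 4 libraries and below all of them in S7. The means were 0.186% ± 0.027 in WT and 0.225% ± 0.061 in Het (n = 4 each, exact permutation p = 0.286). From lower to upper dOBs the share went from 0.213% to 0.123% (S1), 0.300% to 0.0910% (S2), 0.215% to 0.130% (S5) and 0.270% to 0.197% (S6), lower in 4 of 4 WT libraries. In Het it went from 0.259% to 0.304% (S3), 0.267% to 0.231% (S4), 0.150% to 0.137% (S7) and 0.212% to 0.239% (S8), lower in 2 of 4 libraries. Some of these shares rest on few cells, with 22 lower and 11 upper dOBs in S2, 30 and 37 in S3 and 29 and 61 in S8. The change of this share was not tested between genotypes. Over single genes, 0 of 9095 differed between genotypes in their change from lower to upper dOBs (edgeR, 331 at unadjusted p under 0.05, lowest adjusted p 0.118, DESeq2 called 0). There were 43 genes (40 higher and 3 lower) when cells with 3 markers of another class at 3 or more UMIs were left out, and 4 without S1.

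**Figure D4:**
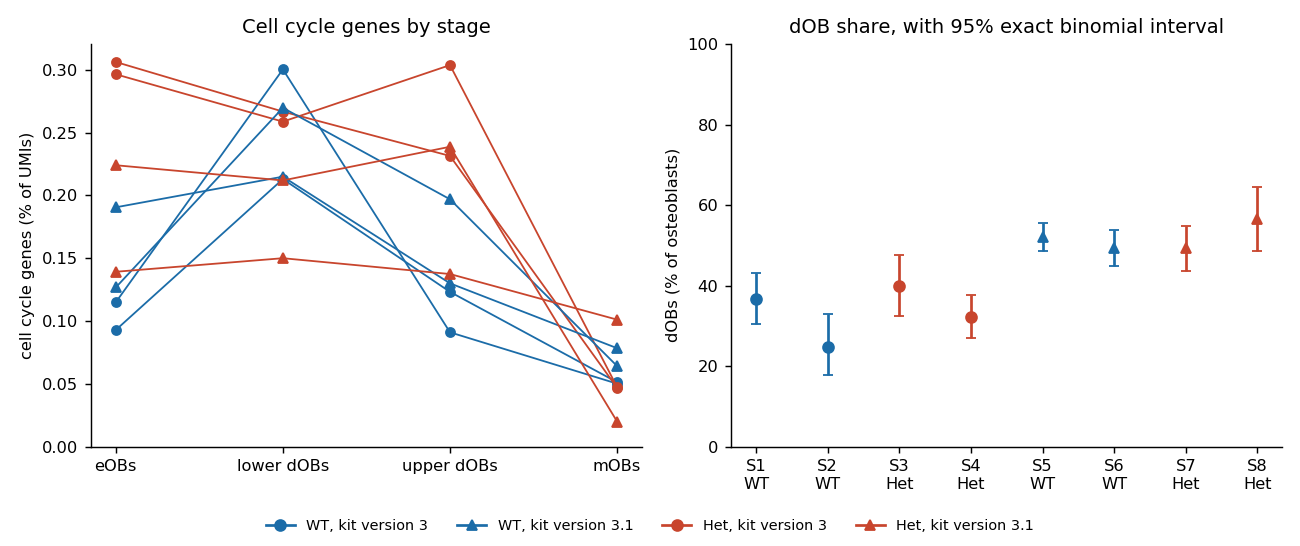
Left, percent of UMIs taken by 36 cell cycle genes in eOBs, lower dOBs, upper dOBs and mOBs, 1 line per library. Right, dOBs as percent of OBs in each library with exact binomial 95% intervals. The 4 WT lines fall from lower to upper dOBs, the Het lines rise in 2 and fall in 2 libraries, and the share of dOBs is lower in the 4 libraries of kit version 3 than in the 4 of kit version 3.1.

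How the mutation changed expression in dOBs was tested in a model with terms for the kit and the genotype. *Col1a2*, the mutated gene, differed by 0.01 (edgeR adjusted p = 1.0). Its values were 10860, 12100, 17470 and 15570 CPM in WT and 12910, 13830, 14770 and 14730 CPM in Het. The counts do not read the substituted base, so they do not check the genotype labels. Of 9853 genes tested, 1 (0.0101%) was called at an adjusted p under 0.05, and 740 (7.51%) had an unadjusted p under 0.05, 383 (3.89%) lower and 357 (3.62%) higher in Het.

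The gene called was *Klhl33*, a kelch-like protein of the family of ubiquitin ligase adaptors (chr14:50888582-50897507 of GRCm38). It had 80.5, 64.1, 25.4 and 38.4 CPM in WT (S1, S2, S5, S6) and 4.81, 24.2, 5.88 and 4.79 CPM in Het dOBs (S3, S4, S7, S8). Every Het library lay below every WT library, with S4 just under S5. The difference was −2.43 on the log2 scale (SE 0.296, 5.40-fold lower, edgeR adjusted p = 0.0312). The log2 difference stayed between −2.86 and −2.17 when single libraries were left out, but the call was lost without S1 (adjusted p = 0.0757), S2 (0.175), S6 (0.125), S7 (0.230) or S8 (0.325), in kit version 3.1 alone (0.0829), with the replicate block (0.102) and without the kit term (0.9998). Between stages, *Klhl33* in dOBs was at 0.15 against eOBs, which was not called, and at −0.83 against mOBs, which was.

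DESeq2 called 4 genes, and edgeR called 4 without cells of 3 markers of another class at 3 or more UMIs, 52 in kit version 3 alone, 0 in kit version 3.1 alone and 269 without the filter on low counts. In the fit over all libraries no other gene passed the adjustment, and the following values had an unadjusted p under 0.05 only. *Bglap2* was at 339, 167, 154 and 141 CPM in WT and 76.0, 127, 122 and 84.8 CPM in Het, without overlap (−0.90, edgeR adjusted p = 0.579). Of its near-identical copies, *Bglap* differed by −0.91 (edgeR unadjusted p = 0.0107) and *Bglap3* by −0.25 (edgeR unadjusted p = 0.493). In kit version 3.1 WT and Het overlapped in both copies, at −0.16 and 0.16, against −0.51 for *Bglap2*. Every Het library lay below every WT library in 0.568% of all tested genes, and above in 0.964%. *Slc40a1*, the iron exporter ferroportin, was at 49.6, 23.5, 44.3 and 44.2 CPM in WT and 10.6, 23.3, 29.4 and 26.0 CPM in Het (−0.85, adjusted p = 0.542), lower within each kit but with overlap between the kits. *Kcnk2*, a potassium channel, was at 66.7, 29.9, 13.01 and 18.7 against 2.88, 18.6, 8.82 and 4.79 CPM (−1.62, adjusted p = 0.503), again with overlap between kits and none within them. The phosphodiesterase gene *Smpdl3a* differed by −1.01 in the same manner.

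Higher Het values were seen for *Pcsk6*, a proprotein convertase, with 23.6, 29.9, 37.4 and 26.2 CPM in WT and 47.1, 57.8, 42.6 and 75.2 CPM in Het (0.87, edgeR adjusted p = 0.503), without overlap. *Col5a3*, a minor fibrillar collagen, was at 43.1, 17.1, 15.4 and 13.7 against 51.9, 57.8, 40.3 and 26.0 CPM (1.01, adjusted p = 0.503). *Dlk1*, a Notch ligand relative that marks progenitors, was at 10.6, 4.28, 130 and 36.8 against 71.2, 20.5, 191 and 142 CPM (1.25, adjusted p = 0.606). In all cells outside the OBs *Dlk1* had a median of 724 CPM, against 54.0 CPM in dOBs. It was above WT in both Het libraries of each kit, but the kits differed more than the genotypes. The LIM protein gene *Crip2* (0.98) and *Fdps* (0.90), an enzyme of isoprenoid synthesis, were taken by the rule in the same way. The rule asks that both Het libraries lie beyond both WT libraries in each kit, so that this holds for its genes is no finding: it held for 5.64% of all tested genes with Het higher and 3.27% with Het lower, and together with an unadjusted p under 0.05 for 2.35% and 1.92%.

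The ISR list had 33 of 37 tested genes higher in Het dOBs, with a median of 0.32 against −0.0047 for all genes. Of these, 16 had an unadjusted p under 0.05 and were higher (background 3.62%), 0 were lower, and 0 passed the adjustment by edgeR. *Aldh1l2* was at 10.6, 6.41, 15.6 and 13.2 CPM in WT and 31.7, 29.8, 22.3 and 18.5 CPM in Het, without overlap (0.86, adjusted p = 0.579). *Asns*, asparagine synthetase, was at 13.8, 36.3, 30.3 and 25.7 against 79.8, 83.9, 29.97 and 41.7 CPM (0.87, adjusted p = 0.582), with S7 inside the WT range. *Psat1* and *Mthfd2*, enzymes of serine and folate metabolism, differed by 1.06 and 0.80, and *Nupr1* and *Eif4ebp1*, an inhibitor of translation, by 0.37 and 0.39. The differences were unequal between kit versions 3 and 3.1. They were 1.73 and 0.50 for *Aldh1l2*, 1.94 and 0.27 for *Asns* and 0.54 and 0.24 for *Eif4ebp1*, but 0.30 and 0.44 for *Nupr1*. The study had named several of these genes from these libraries, so their direction is no independent evidence. Of the ER and mitochondrial stress genes, *Creb3l1* differed by 0.49, *Hspa5* by 0.24 and *Hspa9*, the mitochondrial HSP70, by 0.39, none of them called. Chondrocyte markers moved with these genes: 11 of 11 tested were higher in Het dOBs (4 at unadjusted p under 0.05, median 0.75, sums of 165 to 6698 CPM in WT and 576 to 7619 CPM in Het). Smooth muscle markers were at 549 to 721 CPM in WT and 805 to 1060 CPM in Het, and haematopoietic markers at 51.1 to 560 CPM in WT and 10.9 to 98.8 CPM in Het. The part of these cells in the differences was not tested.

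In the other lists 0 genes were called in Het dOBs, and counts at an unadjusted p under 0.05 are read against 3.62% higher and 3.89% lower over all genes. ER to Golgi transport had 3 higher and 0 lower of 32, the unfolded protein response of the ER 4 higher and 1 lower of 24, that of mitochondria 3 higher and 0 lower of 12, matrix and mineralization 1 higher and 6 lower of 29, and early and stromal genes 0 higher and 6 lower of 20 (median −0.19). Late OB genes had 1 higher and 4 lower of 17, and genes of BMP, FGF, IGF and parathyroid hormone signals 0 higher and 6 lower of 32. Immediate early genes had 1 higher and 4 lower of 22 (median −0.22), signals to osteoclasts 0 higher and 2 lower of 10, and transcription factors of OB fate 0 higher and 2 lower of 18. In each of these lists the larger count was a greater share of the list than the background. Procollagen modification (0 higher and 1 lower of 29) and the Wnt pathway (0 higher and 1 lower of 23) were near the background, and cell cycle (35) and glycolysis (16) genes had 0 in either direction. Of the 83 genes highest in dOBs, 40 (48.2%) were lower in Het, 12 (14.5%) lower and 3 higher at an unadjusted p under 0.05, and 0 were called, with a median of 0.0019. These values and the stage differences use the same dOB sums and are given side by side as a description. *Sfrp2* was above WT in both Het libraries of kit version 3 (389 and 323 against 124 and 25.6 CPM) and below it in both of kit version 3.1 (116 and 403 against 424 and 697 CPM).

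**Figure D5:**
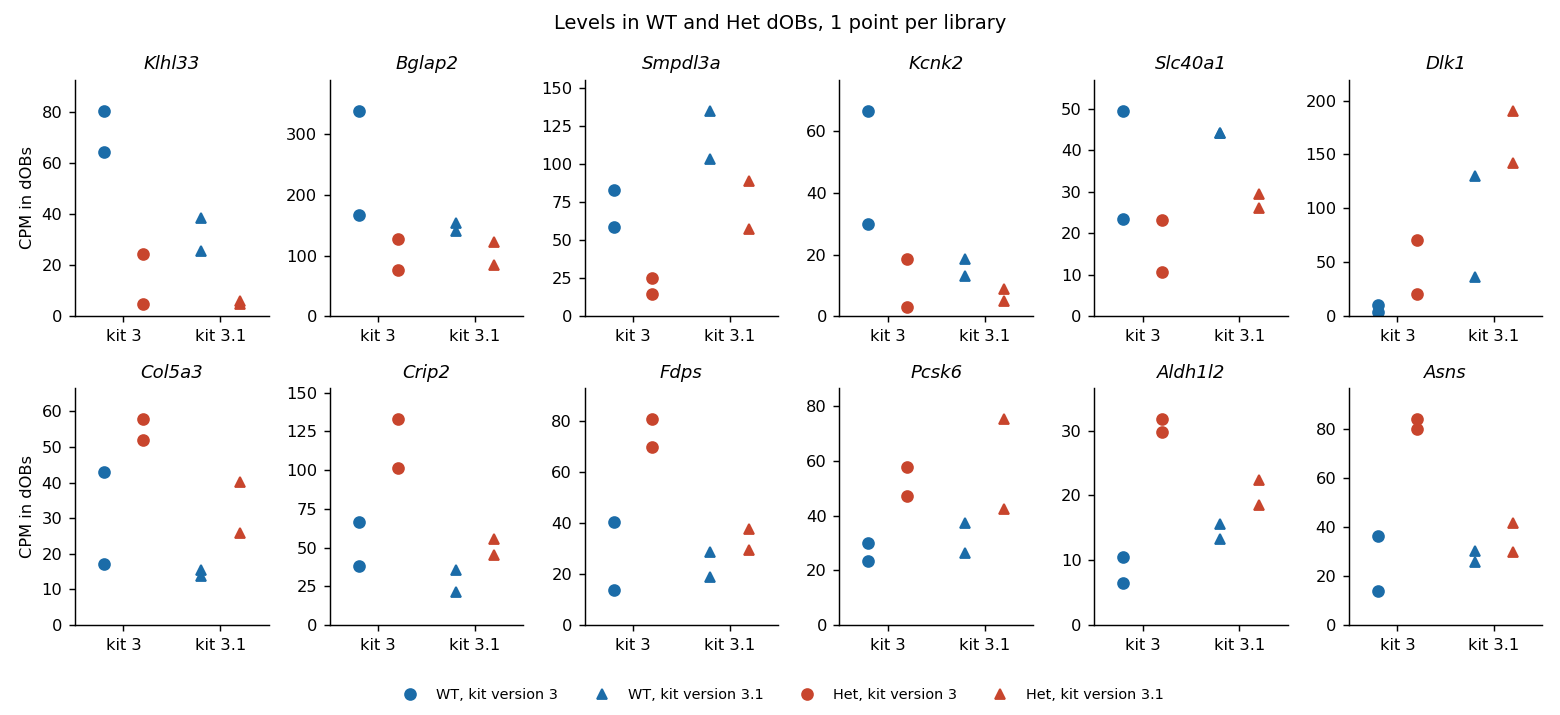
Levels in CPM of 12 genes in the dOBs of each library, by kit version, with WT to the left of Het within each kit and 1 point per library. Klhl33, at 25.4 to 80.5 in WT and 4.79 to 24.2 in Het, is the gene called, and the other 11 had an unadjusted p under 0.05 and were not called.

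Whether the mutation acted differently in dOBs and in the neighbouring stages was tested as a genotype by stage term. Against mOBs, 0 of 10853 genes differed by edgeR (337 at unadjusted p under 0.05), while DESeq2 called 3. The lowest adjusted p was 0.0610, for the amino acid transporter *Slc7a5*, with a term (dOBs minus mOBs) of −2.13 on the log2 scale. *Atf5* and *Asns* had terms of −1.76 (adjusted p = 0.369) and −1.38 (adjusted p = 0.503). Against eOBs, 0 of 10853 genes differed by edgeR (427 at unadjusted p under 0.05, lowest adjusted p 0.330) and 0 by DESeq2. The counts by edgeR moved with the libraries and settings: against mOBs 4 genes were called without S7, 2 without S1, 1 without S8, 1 with RLE factors, 2 without cells of 3 markers of another class at 3 or more UMIs and 36 without the filter on low counts, and against eOBs 1 without S7, 1 without S8 and 94 without the filter.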

How the data were processed

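Parietal bone cells were profiled in 8 libraries (4 WT, 4 Het). The deposited matrices hold raw UMI counts, 1 matrix of genes by cells for each library. Per the submitters' processing notes, Cell Ranger 5.0.0 (kit version 3) or 6.0.1 (kit version 3.1) was run on mm10, and the counts were not normalized. Doublets were kept in the selection. The UMI thresholds by which the study selected OBs are shown in a figure and were not used here, so cell numbers can differ from the study. OB counts were summed per library and stage, leaving out sums of fewer than 10 cells, and p-values measure the spread between libraries of pooled animals.

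Sums were tested with edgeR 4.0.16 (limma 3.58.1, R 4.3.3): filterByExpr, TMM, glmQLFit and glmQLFTest, with the library as a block between stages, and kit version plus genotype between genotypes. SE was taken as the log2 difference over the square root of F. A gene was called at a Benjamini-Hochberg adjusted p under 0.05. CPM values are not TMM-scaled, log2 differences are. The 4 selection genes were left out of tests and counts. DESeq2 1.42.0 was an alternative. Cells were handled in Python 3.11.15 with numpy 2.4.6, scipy 1.17.1, pandas 2.3.3 and scikit-learn 1.9.0. The fits were checked on simulated counts with known changes. Of 31053 genes in the files, 31011 identifiers were in GENCODE M21 (GRCm38), from which coordinates were taken.

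The cells, stages and gene lists were chosen with earlier results of these data known. Genes were named by rule. Up to 12 genes highest in dOBs were taken, ranked by the smaller difference, at 20 CPM or more and highest in at least 6 libraries. Between stages the rule took the 6 largest rises and falls among called genes at 20 CPM or more, seen in at least 7 libraries. The 5 largest rises and falls between upper and lower dOBs had the same conditions. Every gene called between genotypes was taken. So were the 5 largest rises and falls at an unadjusted p under 0.05 with both Het libraries beyond both WT libraries in each kit version. A short list of OB and stress genes was added. Selection, haemoglobin, Xist, Tsix and Y-linked genes were left out. Some genes that the rule or the lists take in are not reported here by name. Other genes named as list members or among the 83 were chosen after their values were seen. Alternatives were other selection limits, filters for doublets and other cells, thinning to 2000 UMIs, other normalization and models, each kit or genotype alone, and leaving out each library.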

Additional observations from a re-analysis of the deposited data

Results flagged for a closer look

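In groups of 4 libraries, a value in dOBs was set aside when its gap to the nearest other library, divided by the range of the group, passed Dixon's 95% limit. This held for 12 of 164 groups, where chance alone gives about 1 in 20.

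Most of these values were those of S1, a WT library of kit version 3. In S1 *Cxcl12* was at 284 CPM against 47.6 to 79.1 in the other WT libraries, *Sfrp4* at 267 against 16.4 to 51.3, *Bglap2* at 339 against 141 to 167, *Sned1* at 87.8 against 32.1 to 40.3, *Col5a3* at 43.1 against 13.7 to 17.1, *Cd93* at 26.0 against 3.17 to 5.87 and *Mepe* at 2.44 against 0 to 0.352 CPM. S1 also had the second-lowest share of upper dOBs (42.7%).

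In the other WT libraries, *Dlx5* was at 150 CPM in S6 against 113 to 114, and *Phospho1* at 0.159 CPM in S5 against 0. In Het libraries, *Klhl33* was at 24.2 CPM in S4 against 4.79 to 5.88, *Top2a* at 182 CPM in S7 against 312 to 319, and *C430049E01Rik* at 0.882 CPM in S7 against 0. *Phospho1* and *C430049E01Rik* had 6 and 9 UMIs in the dOBs of all 8 libraries, and where the other libraries of a group are at 0 the limit is passed whatever the value, so these entries carry no weight.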

How the results depend on the processing

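The alternatives changed the number of genes called more often than their direction. Genes called in Het against WT dOBs numbered 1, and 4 by DESeq2, 269 without the filter on low counts, 3 with cells thinned to 2000 UMIs, 52 in kit version 3 and 0 in kit version 3.1, without the kit term or with the replicate block, and 0 to 2 when single libraries were left out. Genes called between dOBs and eOBs (1397) numbered 2480 with 1 UMI per selection gene, 291 after thinning, 225 in kit version 3, 1710 in kit version 3.1, 482 in WT, 395 in Het and 880 to 1509 without single libraries. Between dOBs and mOBs (2828) they numbered 56 without cells of 3 detected markers, 591 after thinning, 1661 in kit version 3.1, 1578 in WT, 991 in Het and 2277 to 2869 without single libraries. Genes highest in dOBs (83) numbered 180 without the filter, 208 and 54 with 1 and 3 UMIs per selection gene, 48 under 5% mitochondrial UMIs, 43 with limits of 1% and 3%, 15 after thinning, 9 in kit version 3, 31 in WT, 4 in Het and 35 to 83 without single libraries. Those also among the 83 were 66 of the 180, 53 of the 208, 41 of the 54, 40 of the 48 and 36 of the 43. They were 10 of the 15 after thinning, 3 of the 9 in kit version 3, 23 of the 31 in WT and 3 of the 4 in Het. Genes called between upper and lower dOBs (326) numbered 709 without the filter, 49 after thinning and 155 to 384 without single libraries. For the genotype terms, 0 became 26 (upper against lower), 36 (against mOBs) and 94 (against eOBs) without the filter, 3 by DESeq2 and 1 with RLE factors (mOBs), 1 after thinning (eOBs), and 0 to 4, 0 to 4 and 0 to 1 without single libraries.

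A milder limit for other cells (3 markers at 3 UMIs), chosen after seeing the data, gave 4 genes for Het against WT, 750 against eOBs, 43 highest in dOBs, 170 between upper and lower dOBs, and 43, 2 and 1 for the genotype terms (upper against lower, mOBs, eOBs). The limit of 3 detected markers removed 1118 of 1217 dOBs and left only S4 with 10 or more eOBs (14 cells). Its counts and values say nothing about stability, and its values against eOBs set the dOBs of S1, S3, S4 and S5 against 1 library. No genotype or upper against lower fit was made under this limit. Under it the values against eOBs were −1.55 for *Sfrp2*, −2.36 for *Ostn*, −0.509 for *Col8a2*, −1.53 for *Adamtsl1*, −0.766 for *Slc13a5*, −0.0654 for *Bglap* and −0.356 for *Bglap2*, and against mOBs −0.303 for *Ostn* and 0.344 for *Spp1*. *Postn* against mOBs was 0.67 in kit version 3. The causes were not tested.

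The difference in the dOB share of OBs (3.78 points) was −10.8 without cells of 3 detected markers (0 OBs left in S2, and 0 and 2 dOBs in S7 and S8), −0.811 as a share of all cells, −1.51 to 7.88 without single libraries (−1.51 without S2, −0.264 without S8) and 3.78 with the replicate block (exact permutation p = 0.25). The cell cycle ratio of dOBs to eOBs was −0.0939 with limits of 1% and 3%, and 0.126 to 0.309 without single libraries. For single genes, 3373 of 3712 values under alternatives had the direction and the side of the threshold given in the report, 157 lost and 76 gained a call, and 96 of genes not called changed sign. Same-numbered WT and Het libraries did not deviate together (correlation −0.122 in kit version 3 and 0.0505 in kit version 3.1 over 9857 genes). The 33 dOBs of S2 limit the precision of all WT values.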

Other observations

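Further genes among the 83 highest in dOBs were picked out after their values were seen. The metabotropic glutamate receptor gene *Grm7* was at 2.91 on the log2 scale against eOBs and 0.74 against mOBs, and the voltage-gated potassium channel genes *Kcnb2* and *Kcnab1* at 2.57 and 1.55 and at 1.93 and 1.10. *Grm7* and *Kcnb2* were highest in dOBs in 5 of 8 libraries only, and *Kcnab1* in 8 of 8. The microtubule-binding kinase gene *Dclk1* (0.83 and 0.75) and the sarcoglycan gene *Sgcd* (0.93 and 0.73) were more abundant, with mean levels in dOBs of 126 and 540 CPM. Of these, *Grm7*, *Kcnb2* and *Kcnab1* had lower Het than WT values at an unadjusted p under 0.05 (−1.48, −1.41 and −0.81), and 0 were called.

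The share of dOBs with a UMI of *Igf2* and *Ifitm5* also exceeded the background. At 3000 UMIs per cell the median over libraries was 10.6% of dOBs against 1.42% of haematopoietic-like cells for *Igf2*, and 18.8% against 0.709% for *Ifitm5*, from cells with median depths of 8487 to 19160 UMIs and 3569 to 18210 UMIs per library.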
